A study of Rattus norvegicus with 8 samples.

Results

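The proteins examined here are 10 non-channel components of nodes of Ranvier, paranodes, juxtaparanodes and the axon initial segment, taken from a comparison of rat spinal motoneurons at 2 ages. Motoneurons were laser-captured from cresyl violet-stained sections of the lumbar cord of Wistar albino rats at postnatal day 1 (P1), during myelination of their axons, and at postnatal day 21 (P21), when myelination is complete. Each age had 4 arrays, and each array held RNA of 1500 to 2000 captured cells from a pool of 4 rats, with animals of 4 litters divided between the ages. The labels name 1 strain and no treatment. Every probe set annotated to exactly 1 of the gene symbols Ank2, Ank3, Sptbn4, Nfasc, Nrcam, Cntn1, Cntn2, Cntnap1, Cntnap2 and Epb41l3 was taken, which gave 23 of the 31042 probe sets on the array. All 10 genes were represented, 4 of them by 1 probe set and 6 by several.

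Nodes are the gaps between myelin segments where sodium channels are packed so that the action potential can be regenerated, and the initial segment is the matching site at the start of the axon. At both, the scaffold ankyrin-G (Ank3) binds channels and the adhesion molecules neurofascin (Nfasc) and NrCAM (Nrcam), and is fixed to the actin cytoskeleton by βIV-spectrin (Sptbn4). At the flanking paranodes, contactin-1 (Cntn1) and Caspr (Cntnap1) on the axon bind a glial form of neurofascin, and in the adjoining juxtaparanodes contactin-2 (Cntn2) and Caspr2 (Cntnap2) hold potassium channels in place. The FERM-domain protein of Epb41l3 links both Caspr proteins to the cytoskeleton inside the axon, and ankyrin-B (Ank2) acts along the axon shaft.

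The captured cells carried motoneuron transcripts at both ages, with 6 of 7 listed motoneuron markers measured and a summed intensity of 18070 to 20830 at P1 and 19520 to 24550 at P21. Of the 6, 2 were called higher at P21, 1 lower and 3 were not called. Chat, which makes acetylcholine, was higher (change 1.32 ± 0.14), as was the transcription factor gene Isl2 (0.33 ± 0.12, limma adjusted p = 0.0469, a call lost under both other scalings, without the filter and with any array but P1 replicate 4 or P21 replicate 1 left out, with adjusted p = 0.0606 to 0.301), and its relative Isl1 was lower (-1.67 ± 0.24). Intensities are linear and as deposited, changes are given as the log2 ratio P21/P1 with their standard error after ±, and n = 4 arrays per age throughout. The probe set with the highest mean is called the leading one of its gene. A call is an adjusted p under 0.05 in limma's test over all 19155 probe sets that passed a filter on dim signals. Of those probe sets 38.3% were called, 20.8% higher and 17.4% lower at P21, and the higher ones made up 54.4% of the calls, or 38.6% after centring of each array on its median. Array medians lay between 323 and 416.

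Most transcripts of this set did not pass the test between P1 and P21. Of the 23 member probe sets 21 passed the filter, and of these 3 were called higher at P21, 0 were called lower and 18 were not called, so 14.3% of the tested member probe sets were called against 38.3% of all. The 3 that rose were the probe set of Sptbn4, 1 of 5 for Nfasc and 1 of 2 tested for Cntnap2. These 3 were also the tested member probe sets whose 4 intensities at P21 all lay above the 4 at P1, while the ages did not overlap in 38.0% of all tested probe sets. The median change was 0.17 over the 21 and 0.07 over all tested probe sets, and the median size of a change without its sign was 0.19 against 0.285. Of the 18 that were not called, 0 had an unadjusted p under 0.05, and in 17 the 95% confidence interval of the change lay inside a 2-fold difference either way. Counting each gene by its leading probe set, 1 of 10 genes was called, against 39.4% of the 10961 genes measured.

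**Figure D1:**
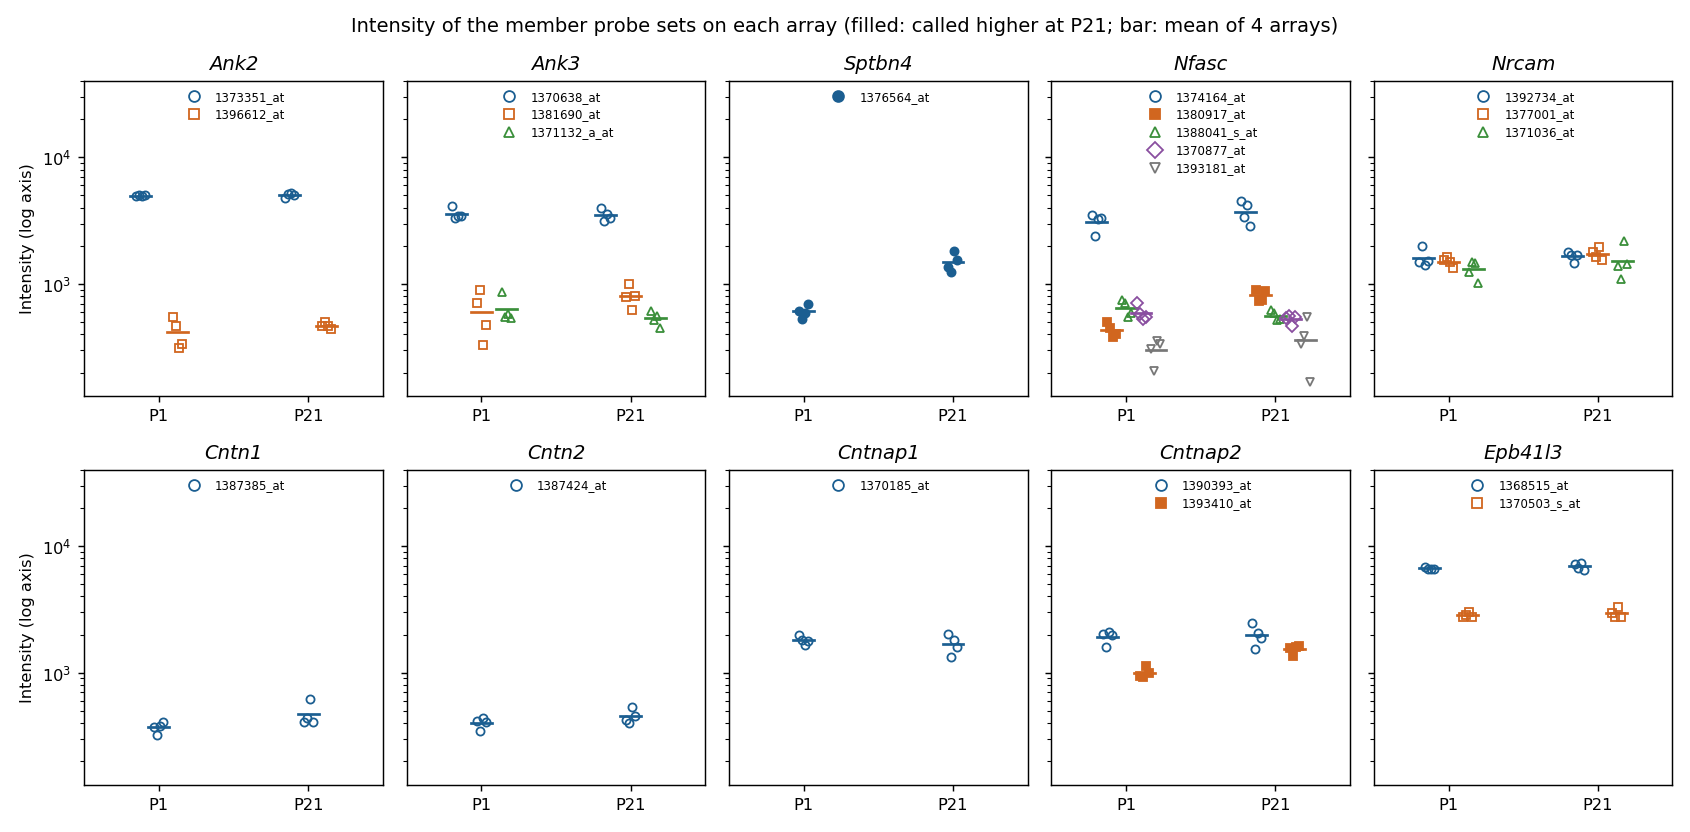
Intensity on a log axis of the 21 tested probe sets at P1 and P21, 1 panel per gene, with 1 point per array, a bar at the mean of 4 arrays and a symbol for each probe set. The filled probe sets of Sptbn4, Nfasc and Cntnap2 are higher at P21 on every array, and the open ones overlap between the ages.

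Sptbn4, the spectrin that fastens ankyrin-G and its cargo to actin at nodes and initial segments, had the largest change of the set. Its probe set 1376564_at read 611.7, 533.8, 590 and 690.9 on P1 replicates 1 to 4 and 1358, 1240, 1816 and 1540 on P21 replicates 1 to 4. All 4 values at P21 were above the highest at P1, and P21 replicate 3 was the highest. The change was 1.26 ± 0.13, or 2.40-fold with a 95% interval of 1.95 to 2.96 (limma adjusted p = 7.8e-05). Within each replicate number the P21 array exceeded the P1 array by at least 1.13 on the log2 scale.

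Ank3, the ankyrin that organises both domains, was not called on any of its 3 probe sets. The leading one, 1370638_at, read 4132, 3326, 3421 and 3446 at P1 and 4000, 3145, 3582 and 3312 at P21, and the ages overlapped almost fully. Its change was -0.03 ± 0.11 with an interval of -0.28 to 0.22 (limma adjusted p = 0.855), and it was 0.04 without P1 replicate 1, whose value stood above the other P1 arrays. Probe set 1381690_at was higher in mean at P21, with 714, 903.5, 332.4 and 473.4 at P1 and 787.3, 998.2, 626.6 and 799.8 at P21. Each P21 array was above the P1 array of the same number, by 0.14 for numbers 1 and 2 and by 0.88 and 0.74 for numbers 3 and 4. The change of 0.475 ± 0.28, with an interval of -0.15 to 1.10, was not called (limma adjusted p = 0.213). With the replicate number as a block its standard error was 0.15 and it was called (limma adjusted p = 0.0445). The third, 1371132_a_at, read 536.7 to 861.5 at P1 and 452.6 to 615.1 at P21, lower at P21 for all 4 replicate numbers (change -0.21 ± 0.16, limma adjusted p = 0.344). The fitted changes of the 3 Ank3 probe sets did not share a sign, and the annotation does not say which exons or transcript forms each one reads.

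Ank2, the ankyrin of the axon shaft, was the steadiest of the scaffolds on its leading probe set. 1373351_at read 4915, 5007, 4986 and 4994 at P1 and 4813, 5089, 5259 and 5070 at P21, a coefficient of variation of 0.827% and 3.64% within the ages. Its change was 0.02 ± 0.08 (limma adjusted p = 0.838), with an interval from 0.900-fold to 1.15-fold. On 1396612_at the P1 arrays spread from 309.7 to 546.1 and enclosed the P21 arrays, at 440.8 to 505.4 (change 0.21 ± 0.17, limma adjusted p = 0.371). A further probe set, 1398125_at, exceeded the filter level on 2 of 8 arrays and was not tested, reading 144.7 to 363.6 at P1 and 170.6 to 395 at P21. The change of Ank3 minus that of Ank2, from the leading probe sets within each array, was -0.05, and an exact two-sided permutation test over the 70 splits of the arrays gave p = 0.514 (0.571 adjusted over 4 pairs of relatives).

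Nfasc, the adhesion molecule with a neuronal form at nodes and initial segments and a glial form at paranodes, was divided among its 5 probe sets. 1380917_at read 498.3, 448, 381 and 402.8 at P1 and 894.9, 736.6, 741.1 and 880.9 at P21. The lowest P21 array was well above the highest P1 array, and the change was 0.89 ± 0.12, or 1.85-fold with an interval of 1.54 to 2.22 (limma adjusted p = 2.89e-04). The brighter leading probe set 1374164_at read 3521, 2377, 3242 and 3294 at P1 and 4478, 3407, 4184 and 2849 at P21. There the ages overlapped, the P21 array was higher for replicate numbers 1 to 3 and lower for number 4, and the change of 0.255 ± 0.17 was not called (limma adjusted p = 0.275).

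The other 3 Nfasc probe sets gave no call either. 1388041_s_at read 552.8 to 744.1 at P1 and 515.8 to 619 at P21, with the P21 array lower for all 4 replicate numbers and a change of -0.19 ± 0.12 (limma adjusted p = 0.241). It was called lower under both other scalings, at -0.33 with arrays centred on their medians (adjusted p = 0.0461) and at -0.305 with quantile normalization (limma adjusted p = 0.046). 1370877_at changed by -0.15 ± 0.12, and the dimmest, 1393181_at, which exceeded the filter level on 6 of 8 arrays, ranged from 168.5 to 543.7 at P21 alone. For this gene the call therefore belongs to 1 probe set. The annotation does not state which neurofascin form that probe set reads. The mean over its 5 probe sets changed by 0.195 ± 0.11 (limma adjusted p = 0.184).

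Nrcam, the second L1-family adhesion molecule that binds ankyrin-G, was not called on any of 3 probe sets. The leading probe set 1392734_at read 1488, 1986, 1412 and 1525 at P1 and 1787, 1678, 1472 and 1684 at P21, so that P1 replicate 2 was the highest array of all. Its change was 0.06 ± 0.12 (limma adjusted p = 0.75). 1377001_at read 1341 to 1641 at P1 and 1550 to 1952 at P21 (change 0.20 ± 0.11, interval -0.04 to 0.44, limma adjusted p = 0.171). 1371036_at changed by 0.20 ± 0.20 and had a P21 array, replicate 3, at 2174 against 1103 to 1443 on the others. The change of Nfasc minus that of Nrcam on the leading probe sets was 0.20, with values that spread widely between arrays (exact two-sided permutation p = 0.571, adjusted p = 0.571).

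**Figure D2:**
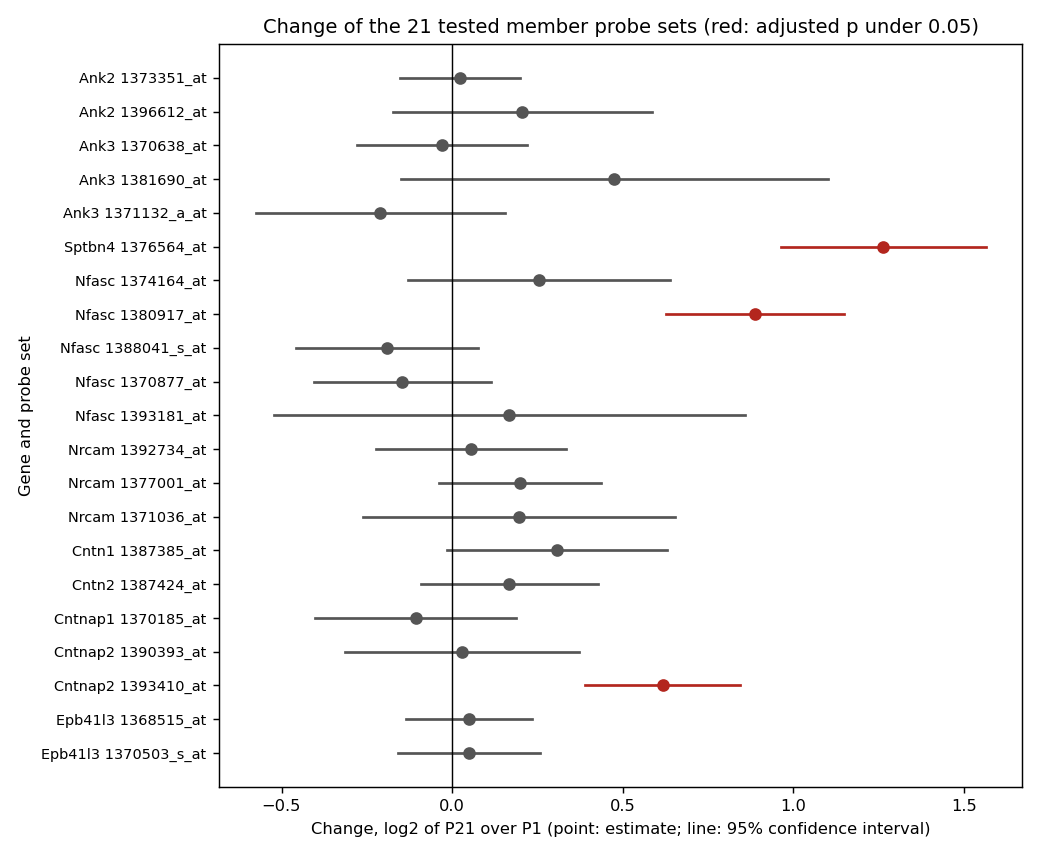
Change of each tested probe set, log2 of P21 over P1, as a point with its 95% confidence interval as a line, 1 row per probe set. The intervals of Sptbn4, Nfasc 1380917_at and Cntnap2 1393410_at lie above 0, and the 18 others include 0.

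At the paranode, neither of the axonal partners was called. Cntn1, the lipid-anchored contactin of the axonal side, read 369.6, 324.5, 380 and 411.4 at P1 and 406.5, 438.1, 618.3 and 411.4 at P21. P21 replicate 3 stood above the rest and the ages overlapped at 406.5 to 411.4. The change was 0.31 ± 0.14, or 1.24-fold with an interval of 0.989 to 1.55, and it had the smallest unadjusted p of the uncalled probe sets, 0.0603 (limma adjusted p = 0.124). Cntnap1, the Caspr protein without which paranodal junctions do not form, read 1978, 1799, 1652 and 1780 at P1 and 2012, 1336, 1795 and 1608 at P21. P21 replicates 1 and 2 were the highest and the lowest of all 8 arrays, and the change was -0.11 ± 0.13 (limma adjusted p = 0.556).

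Epb41l3, the cytoplasmic linker of both Caspr complexes, was bright and steady. Its leading probe set 1368515_at read 6807, 6639, 6635 and 6565 at P1 and 7158, 6730, 7286 and 6448 at P21, with the P21 arrays on both sides of the P1 arrays. The second probe set, 1370503_s_at, read 2731 to 3035 at P1 and 2732 to 3278 at P21. The changes were 0.05 ± 0.08 and 0.05 ± 0.09 (limma adjusted p = 0.663 and 0.708), and the intervals ran from 0.911-fold to 1.18-fold and from 0.895-fold to 1.20-fold. Both turned slightly below 0 when arrays were centred on their medians.

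At the juxtaparanode, Cntn2, the contactin present on both axon and glia there, read 414.1, 346.5, 438 and 407.4 at P1 and 423.2, 403.6, 536.1 and 453.3 at P21. Each P21 array was above the P1 array of its number, by 0.03 to 0.28 on the log2 scale, but the ages overlapped and the change of 0.17 ± 0.12 was not called (limma adjusted p = 0.286). The change of Cntn1 minus that of Cntn2 was 0.14 (exact two-sided permutation p = 0.2, adjusted p = 0.514).

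Cntnap2, the Caspr2 protein that clusters juxtaparanodal potassium channels, gave 1 call on its 2 tested probe sets. 1393410_at read 941.7, 930.6, 1121 and 1001 at P1 and 1557, 1362, 1602 and 1638 at P21, without overlap and with the P21 arrays close together. The change was 0.62 ± 0.10, or 1.53-fold with an interval of 1.31 to 1.79 (limma adjusted p = 0.00106). The leading probe set 1390393_at read 2024, 1590, 2096 and 1967 at P1 and 2461, 1532, 2048 and 1864 at P21, where P21 replicates 1 and 2 again were the extremes of all arrays, and it changed by 0.03 ± 0.15 (limma adjusted p = 0.894). A further probe set, 1393783_at, was under the filter level on all 8 arrays, at 105.8 to 223.9 at P1 and 138 to 255 at P21, and was not tested. The mean of the 2 tested probe sets passed narrowly (0.32 ± 0.115, limma adjusted p = 0.0469). The change of Cntnap1 minus that of Cntnap2 on the leading probe sets was -0.14 (exact two-sided permutation p = 0.257, adjusted p = 0.514), and 0 of the 4 such pairs passed. With 4 arrays against 4 the smallest possible p is 0.0286, and 1 fully separated pair among 4 can reach an adjusted p of only 0.114, so this test could hardly pass a single pair. Averaging all kept probe sets of each gene, that difference was -0.43, and its exact permutation p was the smallest possible (0.0286, adjusted p = 0.114), with all 4 P21 values below the 4 at P1. Cntnap1 has 1 probe set, so the larger difference came from including the called Cntnap2 1393410_at and is not separate support. The other averaged pairs had exact permutation p of 0.2 to 0.914.

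**Figure D3:**
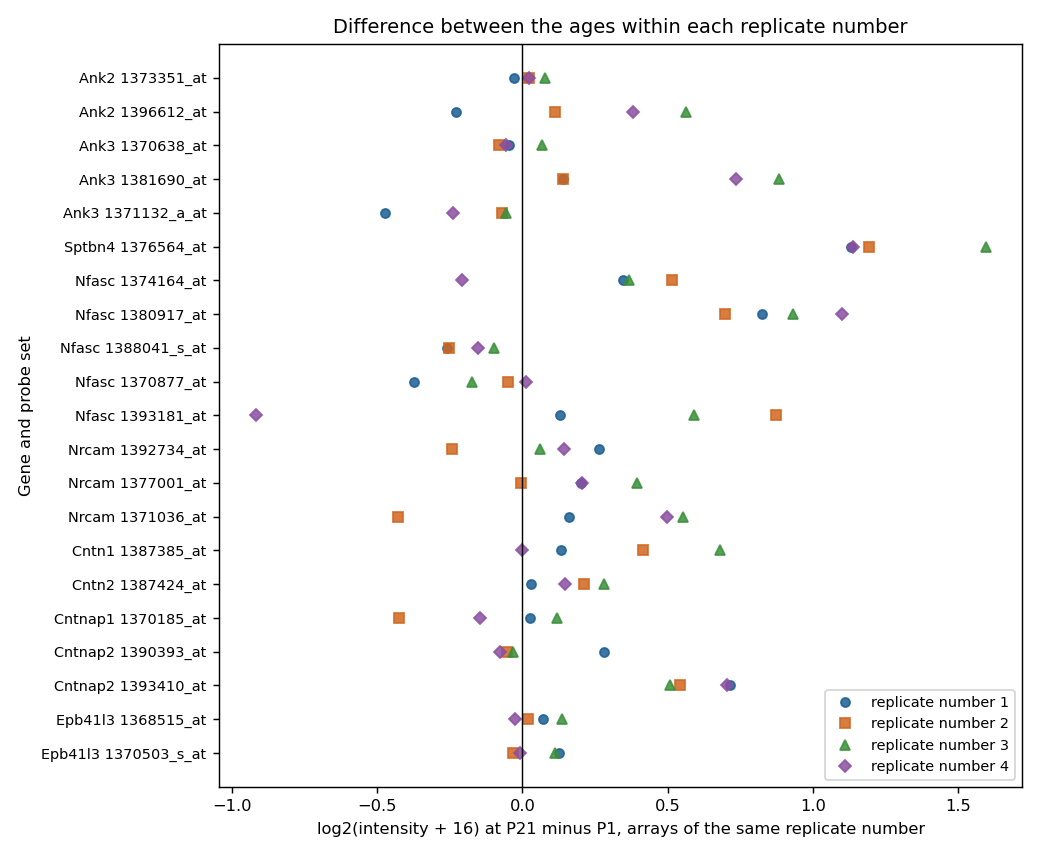
Difference of log2(intensity + 16) between the P21 and the P1 array of the same replicate number, 4 points for each of the 21 tested probe sets. In 5 probe sets all 4 points lie above 0 and in 2 all 4 lie below 0.

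Among the tested probe sets, the P21 array was higher for all 4 replicate numbers in 5. Besides the 3 that were called, these were Cntn2 and Ank3 1381690_at. In 2 probe sets, Ank3 1371132_a_at and Nfasc 1388041_s_at, the P21 array was lower for all 4 numbers. The shares of all tested probe sets with either pattern were not computed. It is also not settled that the numbers pair the arrays, so these counts are descriptive only.

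Most marker transcripts of glia were higher at P21 in the same samples. All 7 measured of 8 listed oligodendrocyte markers were called higher, and their summed intensity was 6032 to 7604 on the P1 arrays and 31960 to 34620 on the P21 arrays. With any 1 P21 array left out 4 were called, since genes dim at P1 then fail the filter. At P1 the myelin genes Mobp, with a mean intensity of 9.05, Mog and Opalin were under the filter level on all 4 arrays, while Mbp, Mag, Cnp and Cldn11 were not. All 3 measured of 4 Schwann cell markers were also higher, from a sum of 6296 to 8562 to one of 10640 to 14530, as were all 5 astrocyte markers, from 6852 to 8082 to 14370 to 16650. Pmp22, with means of 6400 at P1 and 9168 at P21, made up most of the Schwann cell sum. With arrays centred on their medians, or the filter at the 60th percentile, 2 Schwann cell and 4 astrocyte markers were called higher. Without the filter or without P1 replicate 1, 4 astrocyte markers were. Of the microglial markers 3 of 4 measured were higher, with sums of 1055 to 1447 and 3133 to 5282. Among them Cd74 was under the filter level on all 4 P1 arrays and passed the filter through the P21 arrays. With the filter at the 60th percentile 1 microglial marker was called higher. Of the endothelial markers 2 of 3 were higher (1 of 3 with any array but P21 replicate 4 left out), with overlapping sums of 1789 to 2906 and 2170 to 4600. Interneuron markers were divided, 1 higher and 2 lower of 3 measured, with sums of 6967 to 7573 and 4530 to 7032, and leaving out single arrays took either count as low as 0. Slc17a6, with means of 5657 at P1 and 4033 at P21, made up most of the interneuron sum. Gad1 was called lower by its leading probe set, while its other kept probe set changed by 0.51 and was not called. Glia also make Nfasc and Cntn2, and the part of captured glial RNA in the rises of Sptbn4, Nfasc and Cntnap2 was not tested. In captured pools, fewer cells of a type and less RNA per cell cannot be told apart.

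The partners with which these proteins assemble were read from 6 lists holding 68 genes, of which 54 were measured. Of these, 19 were higher, 11 lower and 24 not called, each by its leading probe set, against 22.0% higher and 17.4% lower among all genes. Some genes not called by the leading probe set had another that was called. It was higher for Hapln2 (2.67), Kcnk2 (1.23), Bcan (0.69), Add3 (0.43) and Mapre3 (0.41), and lower for Camsap2 (-0.48). Csnk2a1 had 1 called each way.

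The juxtaparanodal channels and their partners were mostly higher, with 7 of 9 called up, 1 down and a median change of 0.82, against 0.05 over all genes. The number called higher was 5 with arrays centred on their medians. It was 6 without the filter and 6 without P1 replicate 1. Kcnab2 and Kcnab1, auxiliary subunits of the potassium channels that Caspr2 clusters, rose by 1.02 ± 0.08 and 0.95 ± 0.11 (limma adjusted p = 1.13e-05 and 1.01e-04), although the other probe set of Kcnab1 changed by 0.04 and was not called. Kcnab2 read 2983 to 3064 at P1 and 5904 to 6383 at P21. Dlg4, a synaptic scaffold also found at juxtaparanodes, fell by 0.75 ± 0.12 on its leading probe set, while another of its 4 kept probe sets was called higher.

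The ion channel genes listed for initial segments and nodes went both ways, 3 higher, 3 lower and 2 not called of 8 measured (median -0.09). Scn4b, a sodium channel auxiliary subunit, rose from 2983 ± 116 to 7558 ± 328 (SD), and Kcnk4, a potassium channel of nodes, from 516 ± 28.6 to 1072 ± 342. Scn3b, another auxiliary subunit, fell from 6682 ± 609 to 751 ± 256 and Scn2a, the sodium channel of immature and unmyelinated axons, from 3426 ± 228 to 608 ± 182. Scn8a, whose product is the main sodium channel of mature nodes, had no probe set above the filter.

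Relatives of the members in their own protein families were read from 2 lists. Among ankyrin, spectrin, adducin and Epb41 relatives, 2 were higher, 1 lower and 6 not called of 9 measured (median -0.005). Epb41 rose by 1.10 ± 0.16 and Epb41l2, which at paranodes is found on the glial side, by 0.76 ± 0.10, while the other probe set of Epb41l2 fell by 0.71. Add2, an adducin that caps actin in the spectrin lattice, went from 664 to 984 at P1 to 3.83 to 81.2 at P21. Its values were below the filter level on all 4 P21 arrays, and at least 2.93-fold lower. Add2 passed the filter only through its P1 arrays, so its call, the 1 lower of this list, is not support for the fall. With any P1 array left out it failed the filter and was not tested. Of 4 measured relatives in the L1, contactin and Caspr families 0 were higher and 2 lower (median -0.305). These were Chl1 (-0.92 ± 0.10) and L1cam (-0.39 ± 0.10), both adhesion molecules of growing axons and both of the family of Nfasc and Nrcam.

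Of 13 proteins that build the initial segment from the cytoplasmic side, 2 were higher, 3 lower and 8 not called (median -0.13). The share called was 38.5%, against 39.4% of all genes. With the replicate number as a block 5 were lower, and with arrays centred on their medians 0 were higher and 4 lower. Without the filter, or with it at the 60th percentile, 1 was higher. Fgf13, a cytosolic partner of sodium channels, fell from 5749 ± 332 to 2565 ± 337 (SD) and Mapre1, a protein of growing microtubule ends, by 0.70 ± 0.08. Fgf12, of the same family as Fgf13, rose by 0.45 ± 0.10 (limma adjusted p = 0.00593, or 0.0948 when arrays were centred on their medians). Synpo, the protein of the cisternal organelle in initial segments, rose by 0.46 ± 0.16 (limma adjusted p = 0.0431), and that call was lost under both other scalings, without the filter, and when any of P1 replicates 1, 3 and 4 or P21 replicates 2 and 4 was left out (adjusted p = 0.0642 to 0.113).

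Among glial partners and the matrix around nodes, 5 of 11 measured were higher, 1 lower and 5 not called (median 0.24). Cldn11, the tight junction protein of central myelin, rose from 1267 ± 192 to 7072 ± 136 (SD) and Mag, the myelin protein that faces the axon, from 993 ± 125 to 3062 ± 201, both of them also on the oligodendrocyte list. Vcan, a proteoglycan with a form at nodes, fell by 0.43 ± 0.11 (limma adjusted p = 0.0131).

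**Figure D4:**
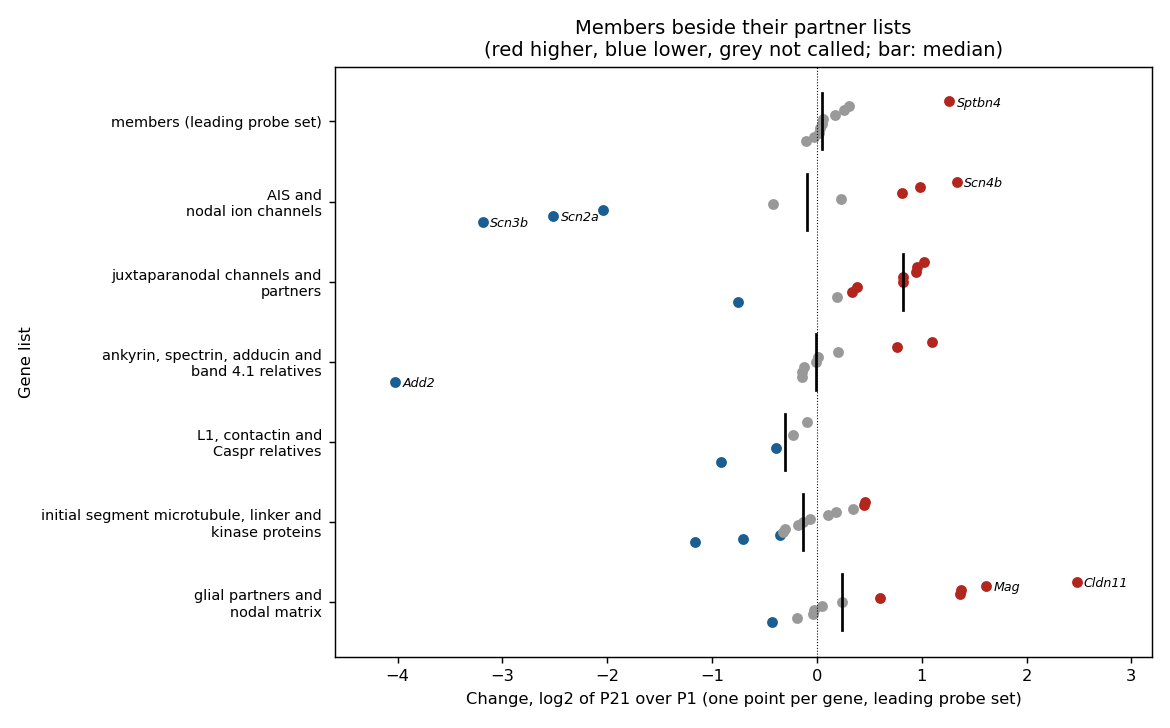
Change of the leading probe set of each gene, log2 of P21 over P1, for the 10 members and the 6 lists of partners, with 1 point per gene and a bar at the median. Of the members Sptbn4 is the 1 called by its leading probe set, while 7 of the 9 juxtaparanodal genes lie to the right as called rises and Scn3b, Scn2a and Add2 lie far to the left.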

How the data were processed

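RNA was amplified in 2 rounds primed at the poly(A) tail, which favours 3′ ends, and hybridised to Affymetrix RAE230 2.0 arrays, per the labels' protocols and design text. The authors deposited a linear intensity per probe set and array, with its summary, background correction and scaling not given in the sources used here. Symbols came from the platform's annotation, checked by gene identifier against GRCr8, and 0 changed. Depth is not defined for arrays, and the 8 arrays limit the precision.

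After negative values had been raised to 0, limma 3.58.1 (lmFit, eBayes, R 4.3.3) compared log2(intensity + 16) at P21 with P1 without covariates, a fit also tested on simulated data. Probe sets above the 40th percentile of their array on at least 4 arrays were kept, and p-values were adjusted by Benjamini-Hochberg over them. An at-least fold sets the brighter age against that percentile at the dimmer age. Pairs of relatives were compared by exact permutation. All members are described. From each partner list the 2 largest called rises and falls of leading probe sets are named. Scn8a, Isl2, some markers and the partners called only on another probe set were named after their values were seen. The members and lists were chosen with earlier results of these data known.

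Deviations from the age means of same-numbered arrays correlated at 0.514 (number 1), 0.321 (2), 0.558 (3) and 0.15 (4). P1 replicates 1 to 3 each correlated most with the P21 array of their own number. P1 replicate 4 correlated more with P21 replicate 3 (0.366) than with P21 replicate 4 (0.15). These values therefore do not settle that the numbers pair the arrays, and the design text ties no number to a litter. The calls and p-values given come from the unpaired fit, and the paired fit, with the number as a block, is an alternative. The P1 and P21 replicates are separate pools. Alternatives were 2 other scalings, pseudocounts of 1 and 64, no filter, a filter at the 60th percentile, the replicate number as a block, averaged probe sets and each array left out.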

Additional observations from a re-analysis of the deposited data

Results flagged for a closer look

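In 5 of 100 groups of 4 arrays, 1 array stood apart from the other 3 by more than Dixon's 95% limit for 4 values (a gap of 0.829 of the range). Chance gives about 1 in 20. Ank3 read 4132 on P1 replicate 1 for 1370638_at, against 3326 to 3446 on the other P1 arrays, and 861.5 on the same array for 1371132_a_at, against 536.7 to 577.9. Cntn1 read 618.3 on P21 replicate 3, against 406.5 to 438.1. Among the partners and markers, Fgf12 read 2502 on P21 replicate 2, against 3014 to 3066, and Isl1 read 365.7 on P21 replicate 3, against 189.2 to 210.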

How the results depend on the processing

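The 3 called member probe sets stayed called in the same direction under all 15 alternatives run for each, with changes of 1.13 to 1.35 for Sptbn4, 0.75 to 0.96 for Nfasc 1380917_at and 0.48 to 0.67 for Cntnap2 1393410_at, and a highest adjusted p of 0.0231. Centring arrays on their medians moved the median change of all probe sets from 0.07 to -0.07 and the higher calls from 3990 to 2631. The number of member probe sets called lower was 1 in place of 0 with centring and with quantile normalization, Nfasc 1388041_s_at in both. Under each, 19% of the member probe sets were called, against 35.6% of all with centring and 40.7% with quantile normalization. Centring turned 5 uncalled values below 0, Ank2 1373351_at to -0.115, Nrcam 1392734_at to -0.082, Cntnap2 1390393_at to -0.108 and the 2 probe sets of Epb41l3 to -0.087 and -0.088, and quantile normalization turned Ank3 1370638_at to 0.009. With 1 array left out, 5 uncalled changes included 0 in their range, -0.094 to 0.041 for Ank3 1370638_at, -0.059 to 0.475 for Nfasc 1393181_at, 0 to 0.162 for Nrcam 1392734_at, -0.082 to 0.144 for Cntnap2 1390393_at and -0.004 to 0.083 for Epb41l3 1370503_s_at. The replicate block called 1 more member probe set, Ank3 1381690_at (adjusted p = 0.0445), and changed no other member's call. It raised the calls among all tested probe sets too, from 38.3% to 46%, against 14.3% to 19% of the member probe sets. Averaging probe sets called 2 genes higher in place of 1.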
